A study of Mus musculus with 23 samples.

Results

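DNA methylation was compared between extra-embryonic ectoderm (ExE, the trophoblast part of the early embryo) of matDKO/CAST and of B6/CAST mouse embryos at embryonic day (E) 6.5. The comparison covered 282741 windows on chromosomes 1 to 19 that had a methylation percentage in all 5 libraries, of 320494 autosomal windows in the table. It used 5 of the 23 samples of the series. B6/CAST embryos were wild type, with C57BL6/Babr mothers and CAST/Ei fathers (2 libraries). matDKO/CAST embryos had the same kind of father and were Dnmt3a -/+ and Dnmt3b -/+ with the null alleles from the mother (3 libraries). Their mothers carried Dnmt3a fl/fl, Dnmt3b fl/fl and Zp3-cre, which is active in growing oocytes only, so that the enzymes were removed from the egg and not from the embryo. The mothers were of mixed C57BL6/Babr and 129 background, unlike the wild-type mothers. The missing oocyte methylation, the single functional copy of each gene in the embryo and the maternal 129 alleles came together in all 3 matDKO/CAST libraries and cannot be told apart here. Each library was an input fraction of a pool of ExE, converted with bisulphite by post-bisulphite adaptor tagging, a low-input method. The labels do not say that the pools of a group came from separate litters, so the tests measure the spread between these libraries.

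DNMT3A and DNMT3B are the enzymes that place new methyl groups on CpG sites. In growing oocytes DNMT3A methylates transcribed gene bodies and the maternal germline differentially methylated regions (gDMRs), which keep their methylation on the maternal allele through early development and control imprinted genes. Most other egg and sperm methylation is erased before implantation, and the embryo and the ExE are then methylated anew, the ExE to a lower level than the epiblast. The question of the comparison was which sites of the ExE depended on methylation from the oocyte and which did not.

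The 5 maternal gDMRs shown here lost most of their methylation in matDKO/CAST ExE, with values given further on. Each sequence is a stretch of 150 bases, free of protein-coding exons, read from the GRCm38 genome on the plus strand. Capitals mark TGCCGC on either strand, the motif that the imprint-protecting zinc finger protein ZFP57 binds when it is methylated.

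Kcnq1ot1, chr7:143295618-143295767: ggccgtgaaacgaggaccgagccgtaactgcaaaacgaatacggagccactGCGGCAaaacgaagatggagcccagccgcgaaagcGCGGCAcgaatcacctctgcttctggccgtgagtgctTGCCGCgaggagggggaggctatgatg

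Trappc9/Peg13, chr15:72809908-72810057: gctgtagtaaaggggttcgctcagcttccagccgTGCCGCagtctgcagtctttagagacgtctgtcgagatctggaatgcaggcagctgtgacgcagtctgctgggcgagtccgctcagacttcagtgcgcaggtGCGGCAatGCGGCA

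Plagl1, chr10:13091025-13091174: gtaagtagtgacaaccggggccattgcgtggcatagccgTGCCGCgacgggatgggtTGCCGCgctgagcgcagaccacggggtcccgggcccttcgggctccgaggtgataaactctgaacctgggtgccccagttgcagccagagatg

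Peg10/Sgce, chr6:4747780-4747929: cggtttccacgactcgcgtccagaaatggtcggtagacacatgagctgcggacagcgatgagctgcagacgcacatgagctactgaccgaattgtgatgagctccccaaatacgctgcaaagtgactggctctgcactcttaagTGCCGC

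Mest, chr6:30737289-30737438: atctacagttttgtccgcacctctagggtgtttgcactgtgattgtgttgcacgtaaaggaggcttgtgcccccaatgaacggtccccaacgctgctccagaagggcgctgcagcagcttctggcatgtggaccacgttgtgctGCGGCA

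At least 1 such motif was present in 11 of the 13 maternal gDMR windows of up to 2 kb, and in 45.3% of all 20083 windows of that length. A match is a description of the letters and not a binding site. A further pair of stretches is given for contrast, with each CG in capitals. The stretch at the Cckar promoter lies in a window that lost far more than the mean window, and the stretch in an intron of Arid5b lies in a window whose values were higher in matDKO/CAST.

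Cckar, chr5:53706941-53707090: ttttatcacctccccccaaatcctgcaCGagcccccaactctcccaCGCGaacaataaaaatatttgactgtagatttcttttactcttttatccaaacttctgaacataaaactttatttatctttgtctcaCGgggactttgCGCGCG

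Arid5b, chr10:68158061-68158210: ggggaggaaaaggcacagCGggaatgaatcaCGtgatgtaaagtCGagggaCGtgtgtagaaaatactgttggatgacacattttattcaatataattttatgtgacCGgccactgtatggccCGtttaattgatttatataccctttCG

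The windows of the table were of unequal length and were made by the authors to hold like numbers of CpG sites. In the reference genome the windows tested held a median of 59 CpG sites, with 51 at the 5th and 81 at the 95th percentile, so that short windows are CpG-dense. The deposited values carry no read numbers, so the depth behind a value is unknown and no interval could be set. Single windows were noisy. Across windows the percentages of the B6/CAST pair correlated with r = 0.874, and those of the matDKO/CAST pairs with r = 0.714 to 0.759, over sites that share base composition and length. Between 88.9% and 99.9% of autosomal windows had a value in a library, the lowest share being that of matDKO/CAST replicate 3.

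matDKO/CAST replicate 1 stood apart from the other two by window length and level. In windows of 14 kb or more it measured 32.9%, against 25.6% and 22.3% in replicates 2 and 3 and 36.5% and 36.4% in B6/CAST. In windows at 90% or more in CAST/B6 ExE, the reciprocal wild-type cross, it measured 65.9%, against 70.3% and 70.4% in replicates 2 and 3 and 81.0% and 80.2% in B6/CAST. Results that rest on it are given with and without it.

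The tissue label was checked at promoters of lineage genes. Elf5, a trophoblast transcription factor whose promoter is unmethylated in trophoblast, was at 10.7% and 10.8% in B6/CAST ExE and at 16.7%, 14.7% and 13% in matDKO/CAST ExE. In the epiblast the same window averaged 55.2% in B6/CAST and 54.2% in matDKO/CAST, so all 5 ExE libraries were lower than the epiblast there. In other wild-type ExE it was higher, at 31.4% in CAST/B6 and, at E7.5, 41.7% on the maternal and 39.1% on the paternal allele. Pou5f1, the pluripotency factor OCT4, measured 29.0% and 33.8% in B6/CAST and 20.3%, 38.3% and 8.70% in matDKO/CAST, and averaged 4.81% in B6/CAST epiblast. Nanog, another pluripotency factor, measured 67.1% and 76.2% against 43.2%, 45.3% and 72.5%, and averaged 47.9% in B6/CAST epiblast. At Pou5f1, matDKO/CAST replicate 3 lay below the matDKO/CAST epiblast mean of 11.4%. At Nanog, matDKO/CAST replicates 1 and 2 lay below the B6/CAST epiblast mean, though above the 27.7% of matDKO/CAST epiblast. These promoters thus did not tell the tissues apart in every library. How far remaining epiblast cells took part in the results was not tested.

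The mean window differed by -12.24 percentage points between matDKO/CAST and B6/CAST. It measured 51.1% in both B6/CAST libraries, and 39.7%, 39.6% and 37.3% in the matDKO/CAST libraries. The groups did not overlap (51.1% ± 0.0293, SD, n = 2, against 38.9% ± 1.34, SD, n = 3). An exact permutation test, two-sided as are all tests here, gave p = 0.1, and no smaller p can arise from 3 libraries against 2. The loss came to 24.0% of the B6/CAST level. The wild-type CAST/B6 ExE libraries averaged 64.9% and 62.2%, so the wild-type crosses also differed in mean level. All 3 matDKO/CAST libraries lay below both B6/CAST libraries at 134866 windows, 47.7% of those tested, and above both at 1666 windows, 0.589%. No single window passed limma with Benjamini-Hochberg adjustment in either direction (0 of 282741), while 74879 were lower and 120 higher at an unadjusted p under 0.05. With so few libraries and noisy windows, a window that missed the threshold is not shown to be unchanged.

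To see where loss went beyond this drop, the mean of each library was subtracted from its values. A relative difference below 0 then marks a loss larger than that of the mean window. The relative values of all 3 matDKO/CAST libraries lay below both B6/CAST libraries at 31405 windows (11.1%). They lay above both at 15664 of the 208906 windows (7.50%) with 50% or more in CAST/B6 ExE, a limit set because a window near 0 cannot fall. Without matDKO/CAST replicate 1, which leaves fewer values to separate, these shares were 18.8% and 15.5%. Libraries in random order would give a share of 0.1 on each side, and 0.167 without replicate 1. The shares lie near these values, so the counts do not mark single windows as changed beyond the drop. The limit of 50% was set in the other cross, so windows low in B6/CAST stayed among the 208906. By level in B6/CAST, the share of these above both was 66.4% at 10 to 20% and 32.9% at 20 to 30%. It was 6.64% at 40 to 50% and 7.36% at 70 to 80%. The side of a smaller drop thus holds many windows with a low B6/CAST reading. No window passed limma on relative values, with 8163 (2.89%) lower and 6930 higher at an unadjusted p under 0.05.

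The maternal gDMRs lost the most of the classes of windows measured. Over 14 such regions, each represented by its shortest window, the mean was 54.2% and 48.2% in B6/CAST and 17.5%, 18.3% and 11.7% in matDKO/CAST. The matDKO/CAST libraries all lay far below the B6/CAST pair, at a mean difference of -35.3 points (exact permutation test, p = 0.1), which is 69.0% of the level. All 3 matDKO/CAST libraries were below both B6/CAST libraries in 12 of the 14, beside 47.7% of all windows. In relative values 11 were also below, beside 11.1% of all windows. By limma, 12 of the 14 had an unadjusted p under 0.05, where 26.5% of all windows were lower, and 0 passed the adjustment over all windows. With the mean of every window in each region in place of the shortest, the difference was -32.6 points, 14 of 14 were lower and 8 were below in relative values.

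**Figure D1:**
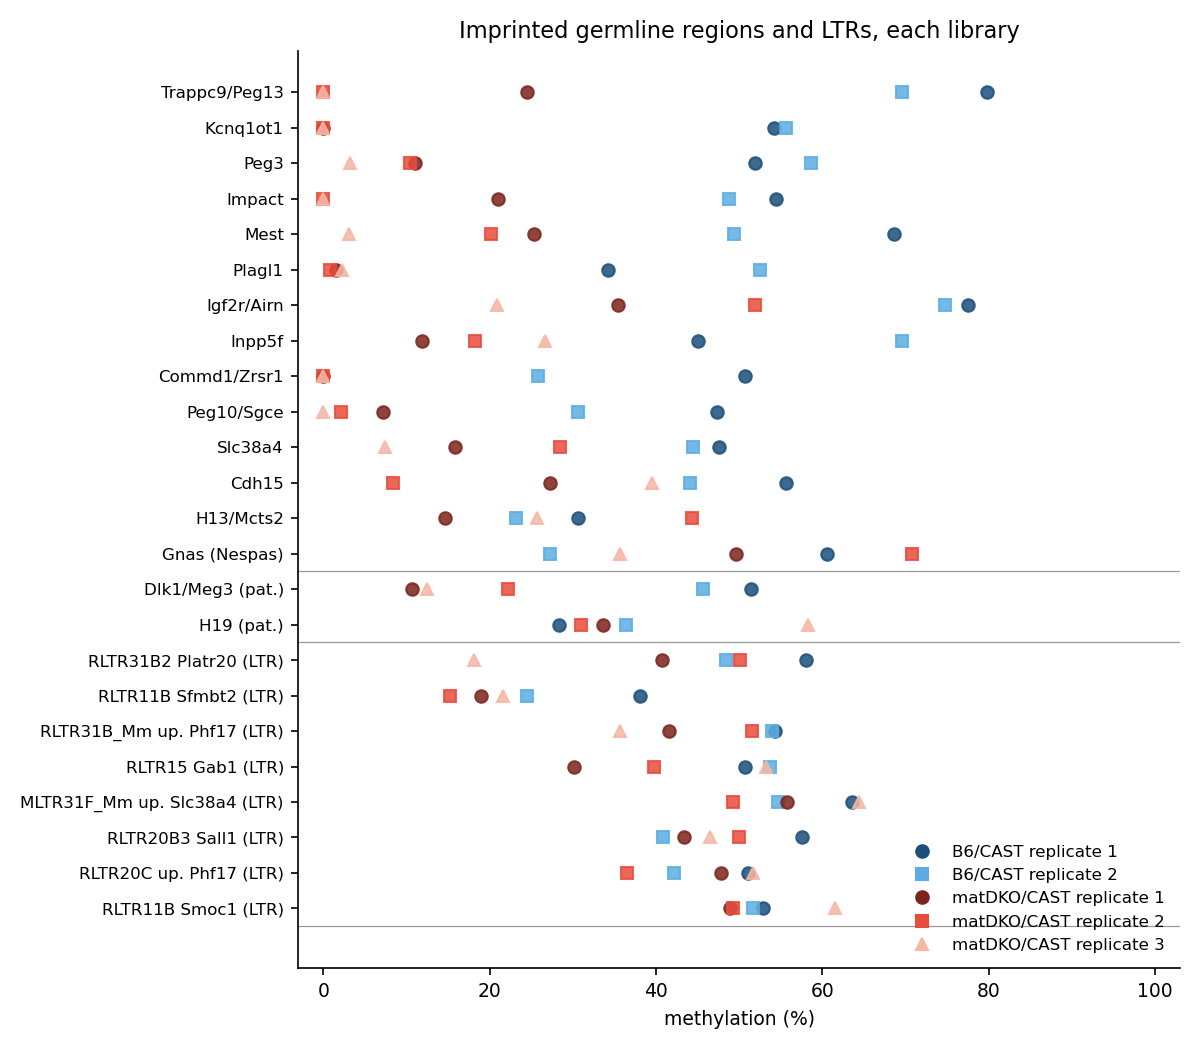
Methylation (%) of each imprinted region or LTR on the horizontal axis, 1 point per library: circles, squares and triangles are replicates 1, 2 and 3, blue for B6/CAST and red for matDKO/CAST, with maternal gDMRs on top, paternal gDMRs in the middle and LTRs below. In 12 of the 14 maternal gDMRs every red point lies left of both blue points, and among the LTRs this holds in 2 of 8.

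Levels left in matDKO/CAST ranged from 0 in every library to values within those of B6/CAST. At the promoter of Kcnq1ot1, an antisense RNA in an intron of Kcnq1 that silences the surrounding genes (chr7:143295618-143296400), the level was 54.2% and 55.7% in B6/CAST and 0% in each of the 3 matDKO/CAST libraries. At E7.5, where the alleles of ExE had been separated, this window was at 93.0% on the maternal and 0.229% on the paternal allele. The Commd1/Zrsr1 region (chr11:22972202-22972876), where Zrsr1 is a retrogene inside Commd1, was at 50.7% and 25.8% in B6/CAST and at 0% in all matDKO/CAST libraries.

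Plagl1 (chr10:13090695-13091188), which encodes a zinc finger regulator of growth, was at 34.3% and 52.5% in B6/CAST and near 0 in every matDKO/CAST library, at 1.52%, 0.847% and 2.27%. Trappc9/Peg13 (chr15:72809439-72810310) measured 79.9% and 69.6% against 24.5%, 0% and 0%. Peg10/Sgce (chr6:4747651-4748247), at a retrotransposon-derived gene that the placenta needs, measured 47.3% and 30.6% against 7.14%, 2.08% and 0%. In each of these regions the groups were well apart, and at Trappc9/Peg13 the value above 0 in matDKO/CAST was that of replicate 1.

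Peg3 (chr7:6730167-6731282), a zinc finger gene expressed from the paternal allele, went from 51.9% and 58.6% to 11.0%, 10.5% and 3.21%. Mest (chr6:30736116-30737609), a hydrolase-fold gene linked to growth, measured 68.6% and 49.3% against 25.3%, 20.2% and 3.03%. Impact, a regulator of translation, measured 54.4% and 48.8% against 21.0%, 0% and 0%. All 3 regions had non-overlapping groups.

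The others kept more. Igf2r/Airn (chr17:12734034-12741369), the control region of the IGF2 clearance receptor and its antisense RNA, measured 77.5% and 74.8% against 35.4%, 51.9% and 20.8%, in a window of 7336 bp that reaches beyond the region itself. Slc38a4, an amino acid transporter of the placenta, measured 47.6% and 44.4% against 15.8%, 28.4% and 7.45%, and Inpp5f, a phosphoinositide phosphatase, 45.1% and 69.6% against 11.9%, 18.2% and 26.7%. Cdh15 measured 55.6% and 44.1% against 27.3%, 8.33% and 39.5%, and its groups came within a few points of each other.

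In 2 of the 14 windows the groups overlapped. The H13/Mcts2 window (chr2:152706129-152707787) was at 30.6% and 23.1% in B6/CAST and at 14.7%, 44.3% and 25.7% in matDKO/CAST. It was not allelic at E7.5 either, with 48.3% on the maternal and 48.5% on the paternal allele. The Gnas window at Nespas (chr2:174284802-174285344) was at 60.6% and 27.2% against 49.6%, 70.8% and 35.7%, and at E7.5 it was methylated on the paternal allele (67.0%, against 6.48% on the maternal). A second Gnas window further downstream (chr2:174297623-174298680), with 95.1% on the maternal and 21.4% on the paternal allele, measured 59.8% and 56.0% against 11.3%, 4.05% and 10.5%. This second window was among the 10 picked for the smallest p on the side of loss, which fixes its direction. As measured, it was low in every matDKO/CAST library, and the window methylated on the paternal allele was not.

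Loci that are imprinted through sperm methylation were each read at the shortest window in the study's peak, which lies in the H19 or the Meg3 gene and not over the intergenic control region. The H19 window (79.4% of its bases in exons) measured 28.3% and 36.4% in B6/CAST and 33.7%, 31.0% and 58.3% in matDKO/CAST, and the groups overlapped. At the Dlk1/Meg3 window (chr12:109540937-109542341; 35.7% in exons) the level went from 51.4% and 45.6% to 10.7%, 22.2% and 12.5%, although at E7.5 it was at 2.62% on the maternal and 77.5% on the paternal allele. This loss was of the size seen at maternal gDMRs (-33.4 points) and was smaller over all 8 windows of the region. The windows of the whole peaks reach beyond these genes into intergenic DNA. The mean of the 2 regions over all of their windows differed by -7.50 points (-12.1 and -2.93; exact permutation test, p = 0.2).

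Upstream of Rasgrf1, a further paternally methylated locus, 6 windows within 40 kb averaged 42.9% and 46.1% in B6/CAST and 25.3%, 26.3% and 32.6% in matDKO/CAST (difference -16.4; exact permutation test, p = 0.1). All matDKO/CAST libraries were below both B6/CAST libraries in 4 of the 6, beside 47.7% of all windows. The window with the largest E7.5 bias (chr9:89878508-89881698; 11.7% maternal, 81.5% paternal) measured 56.4% and 42.6% against 8.65%, 21.3% and 32.6%. Loss was therefore measured at some windows that carry their methylation on the paternal allele.

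The imprinted ERVK LTRs, retrotransposon ends that act as promoters in the ExE, had a mean difference smaller than that of the mean window. Averaged over 8 LTRs, the level was 53.3% and 46.3% in B6/CAST and 40.9%, 42.7% and 44.1% in matDKO/CAST. The difference was -7.19 points (exact permutation test, p = 0.1), and it was 5.05 points above the mean drop. The groups overlapped once the library means were subtracted. The difference was -3.69 points without B6/CAST replicate 1 and -10.7 without B6/CAST replicate 2, so that its distance from the mean drop rests on these libraries. An LTR is shorter than its window, so these values include flanking sequence. In 2 of the 8 all matDKO/CAST libraries were below both B6/CAST libraries, beside 47.7% of all windows.

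The values of single LTRs scattered. RLTR11B at Sfmbt2, a Polycomb group gene imprinted in the placenta, measured 38.0% and 24.5% against 18.9%, 15.3% and 21.6%. RLTR15 at Gab1, an adaptor of growth factor signalling, measured 50.7% and 53.8% against 30.1%, 39.8% and 53.2%, so that replicate 3 lay between the B6/CAST values. RLTR31B2 at Platr20 was the most negative (58.1% and 48.4% against 40.8%, 50.1% and 18.1%), a value that rests on replicate 3. RLTR11B at Smoc1 was the least (52.9% and 51.7% against 48.9%, 49.3% and 61.5%).

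The loss was then read against the allelic state of each window in wild-type ExE at E7.5, which was measured in other embryos and covers 242291 of the windows (85.7%). Almost all of these windows differ little between the alleles. In the 115745 windows where the maternal allele was lower by up to 10 points the mean difference was -12.42 points. In the 111803 where it was higher by up to 10 points the mean difference was -12.67 points. Only at strong maternal bias was the loss much larger. Windows with 20 to 30 points more on the maternal allele (n = 292) measured 44.2% and 44.3% in B6/CAST and 32.1%, 28.9% and 26.0% in matDKO/CAST, a drop of 34.4% of the level. Windows with 30 points or more (n = 41) measured 55.5% and 51.6% against 28.0%, 24.1% and 23.3%, a drop of 53.1%, and 56.1% of them were below in relative values in all matDKO/CAST libraries, beside 11.1% of all windows.

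**Figure D2:**
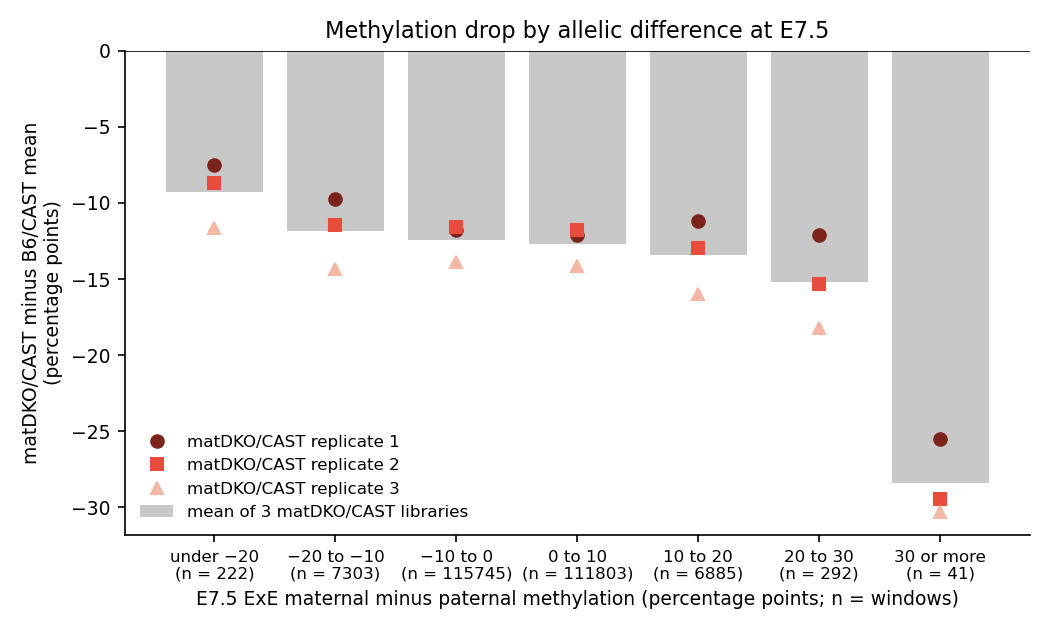
Difference matDKO/CAST minus the B6/CAST mean (percentage points) on the vertical axis for windows grouped by their maternal minus paternal methylation in E7.5 ExE; bars are means of the 3 matDKO/CAST libraries and points the single libraries. The bars lie between -9.28 and -15.2 points except at 30 points or more of maternal excess, where the bar reaches -28.4.

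The bin of strong maternal excess is small and holds imprinted regions, several of them the gDMRs above. The windows at 60% to 80% in CAST/B6 ExE were also read on their own. There the difference was -11.5 points at a paternal excess over 20 points (n = 75) and -14.3 at a paternal excess under 10 points. It was -17.6 at 20 to 30 points of maternal excess (n = 123) and -27.3 at 30 points or more (n = 23). matDKO/CAST replicate 1 alone gave -11.8 in the first of these bins and -24.3 in the last, and in between its differences did not grow steadily with the maternal excess, at -13.9, -13.2 and -13.8 for 0 to 10, 10 to 20 and 20 to 30 points of maternal excess. Over all windows the correlation of the difference with the maternal minus paternal value was close to 0 (r = -0.03, across windows, which share libraries).

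The size of the loss followed the level of a window, as measured in the CAST/B6 cross, which had no part in the comparison. The difference was -0.999 points in windows at 0 to 10% and -14.6 points in windows at 70 to 80%, the largest of all strata. Without matDKO/CAST replicate 1 the largest was -14.7 points, at 60 to 70%. As a share of the B6/CAST level the loss was between 24.4% and 30.6% in all strata up to 80%. It was smaller at the top, with 18.7% at 80 to 90% and 14.6% at 90% or more. In the highest stratum the libraries measured 81.0% and 80.2% in B6/CAST and 65.9%, 70.3% and 70.4% in matDKO/CAST. With strata by B6/CAST itself, the share lost was 10.7% at 0 to 10%, 28.9% at 40 to 50% and 16.7% at 90% or more, so the place of the smallest share depends on the cross used for the strata.

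**Figure D3:**
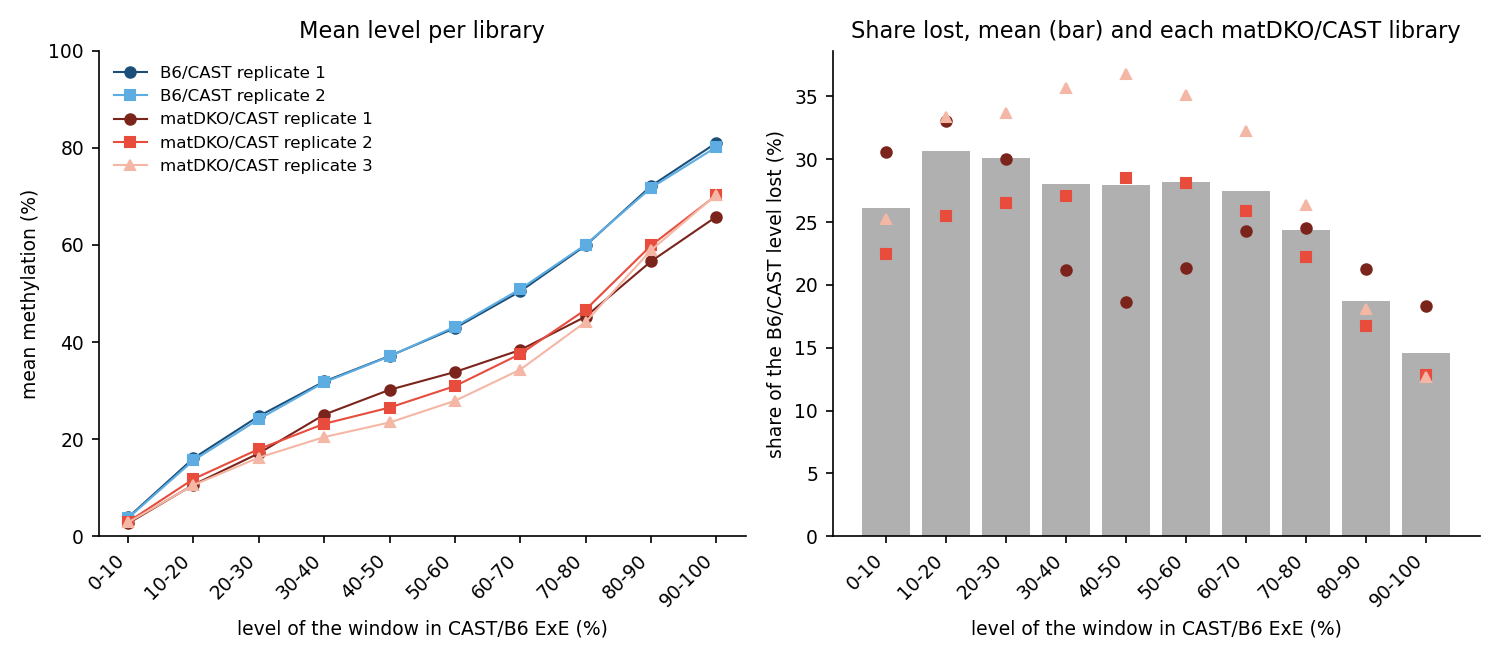
Left, mean methylation (%) of each library in windows grouped by their level in CAST/B6 ExE; right, share of the B6/CAST level lost (%), bars for the mean and points for each matDKO/CAST library. The bars fall from 30.6% at a level of 10 to 20% to 14.6% at 90 to 100%, and replicate 1 (dark circles) crosses the others.

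The libraries did not agree on the middle of the range. At 40 to 50% in CAST/B6 the levels were 30.2%, 26.5% and 23.5% in matDKO/CAST replicates 1, 2 and 3, against 37.1% in both B6/CAST libraries. Replicate 1 there kept the most and at the top of the range the least.

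CpG density gave a similar picture. Windows under 1 kb, the most CpG-dense, measured 4.28% and 4.16% in B6/CAST and 3.01%, 3.17% and 3.16% in matDKO/CAST. The difference was -1.11 points, which is 26.2% of the level. Windows of 4 to 6 kb, the most common length, differed by -13.9 points, with 59.98% and 60.09% against 45.4%, 47.5% and 45.4%. Windows of 14 kb or more, in CpG-poor DNA, differed by -9.52 points in all, by -12.5 points without matDKO/CAST replicate 1 and by -3.54 points in replicate 1 alone. As a share of the level, the mean drop of all matDKO/CAST libraries was between 22.1% and 26.2% at every length. At 14 kb or more this share rests on matDKO/CAST replicate 1.

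**Figure D4:**
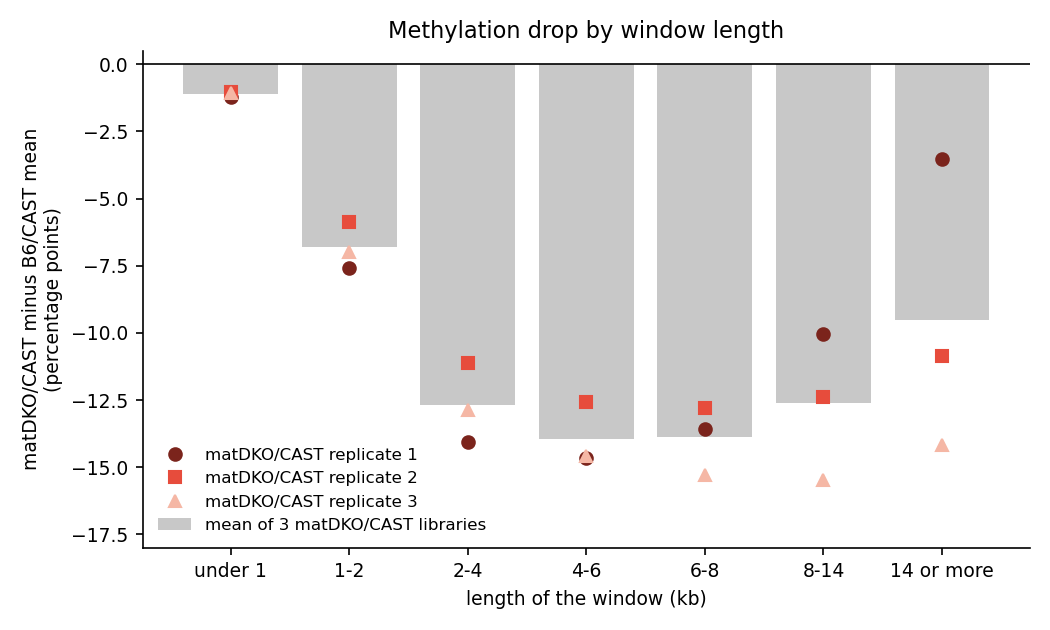
Difference matDKO/CAST minus the B6/CAST mean (percentage points) by length of the window (kb); bars are means of the 3 matDKO/CAST libraries and points the single libraries. The bar is at -1.11 points for the shortest, CpG-dense windows and at -13.9 for windows of 4 to 8 kb, and in the longest windows replicate 1 (-3.54) lies apart from the others.

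By position, windows over a transcription start differed by -9.71 points (22.0% of the level), windows in gene bodies by -12.9 (22.3%) and windows between genes by -12.7 (26.5%). The last 2 changed order in points without matDKO/CAST replicate 1, at -12.8 and -13.7. CpG-dense starts, in windows under 2 kb, differed by -2.29 points and were at 9.26% and 8.95% in B6/CAST. Windows with at least 80% of their bases in annotated repeats differed by -11.3 points and those with under 20% by -12.1. Without matDKO/CAST replicate 1 this order turned, at -12.5 and -11.9. The differences of single chromosomes ran from -11.7 points on chromosome 16 to -12.7 on chromosome 13. In each of the classes named here all 3 matDKO/CAST libraries lay below both B6/CAST libraries.

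Gene bodies gave the most calls on the difference itself, with at least 3 windows averaged for each protein-coding gene. Averaging windows lowers the noise of a value but adds no libraries. Of 12654 genes, 9835 fell (77.7%; limma, adjusted p under 0.05) and 0 rose, with 0 higher at an unadjusted p under 0.05. Without B6/CAST replicate 1 the number that fell was 3556, and without B6/CAST replicate 2 it was 4548. All 3 matDKO/CAST libraries were below both B6/CAST libraries in 11080 genes (87.6%) and above both in 9 (0.0711%). Relative to the mean drop, 1370 genes (10.8%) lay below in all libraries and 1380 of the 10625 with 50% or more in CAST/B6 (13.0%) lay above. Both shares are near the 0.1 that libraries in random order would give on each side. No gene body passed limma on relative values, with 352 (2.78%) lower and 914 higher at an unadjusted p under 0.05. The gene bodies named next are those with the smallest such p in each direction, on the side of a smaller drop among genes with 50% or more in CAST/B6.

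**Figure D5:**
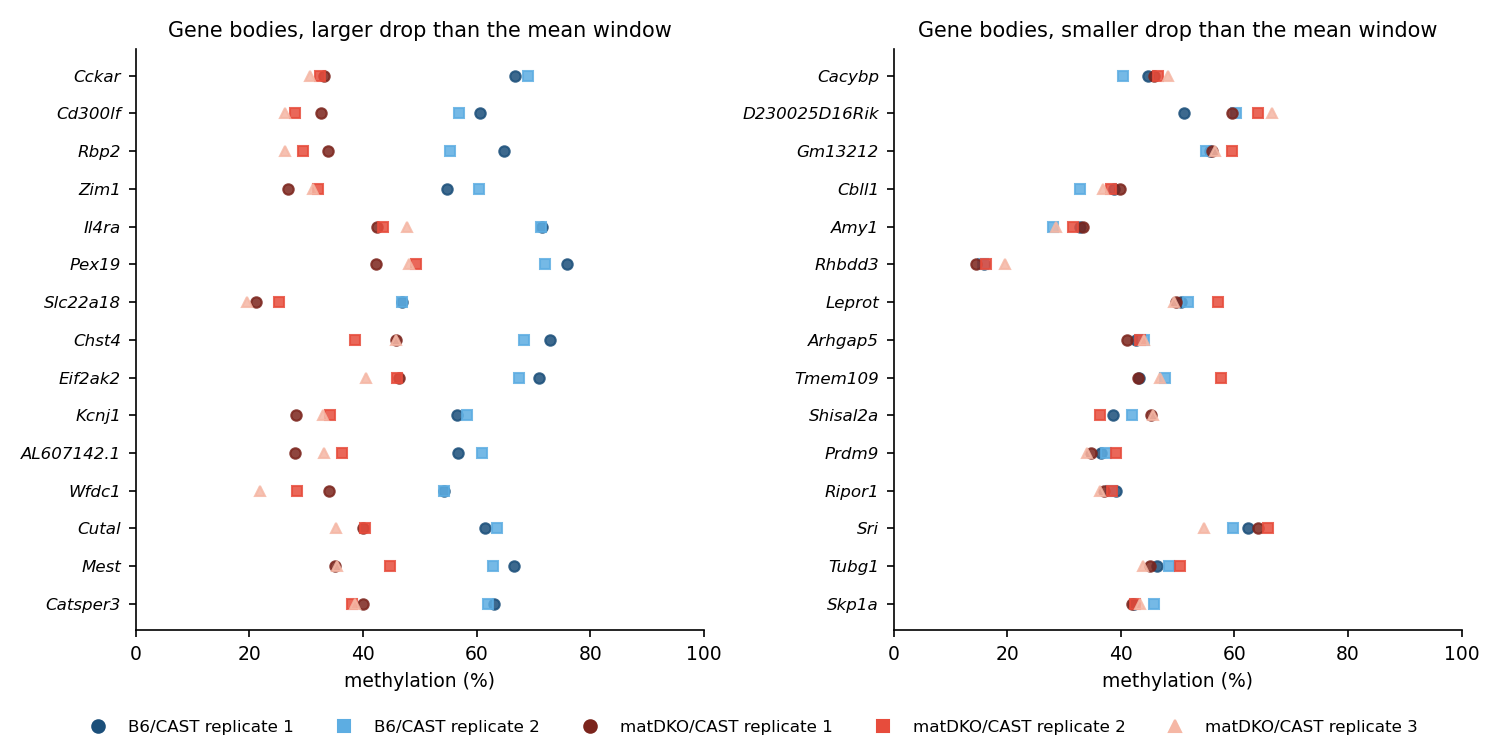
Methylation (%) of the 15 gene bodies with the smallest p for a larger (left) and a smaller (right, among genes with 50% or more in CAST/B6) drop than the mean window, 1 point per library: blue for B6/CAST, red for matDKO/CAST, with circles, squares and triangles for replicates 1, 2 and 3. On the left all red points lie below both blue points, with Cckar at the top; on the right they overlap them or, as in Cacybp, lie above them.

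Cckar, the receptor for the gut hormone cholecystokinin (chr5:53697776-53707705), had the largest loss of these. Its gene body measured 66.8% and 69.1% in B6/CAST and 33.2%, 32.4% and 30.7% in matDKO/CAST. The libraries of each group were within a few points of each other and the groups were far apart, with a difference of -35.8 points (SE 2.80; limma, adjusted p = 0.0011) and a relative difference of -23.6 (adjusted p = 0.0726). The gene was not allelic in wild-type ExE at E7.5, at 69.3% on the maternal and 67.3% on the paternal allele.

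Il4ra, the interleukin 4 receptor chain, measured 71.5% and 71.4% against 42.5%, 43.5% and 47.7%. Cd300lf, an inhibitory receptor of myeloid cells, measured 60.7% and 56.9% against 32.7%, 28.0% and 26.3%. Rbp2, a retinol-binding protein of the intestine, measured 64.9% and 55.4% against 33.9%, 29.4% and 26.2%. In all of these the highest matDKO/CAST library was more than 20 points below the lowest B6/CAST library.

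Imprinted genes were 3 of the 15, beside 0.609% of all gene bodies. Zim1, a zinc finger gene next to Peg3, measured 54.7% and 60.4% against 26.8%, 32.1% and 31.2%. Slc22a18, a transporter in the Kcnq1ot1 domain, measured 46.9% in both B6/CAST libraries and 21.2%, 25.2% and 19.5% in matDKO/CAST. The gene body of Mest measured 66.6% and 62.9% against 35.1%, 44.7% and 35.4%, and was at 80.3% on the maternal and 48.4% on the paternal allele at E7.5. Of all 15, Mest was the one with at least 20 points more on the maternal allele, and the median maternal excess was 1.38 points.

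At the other end were gene bodies that stayed level. Cacybp, which binds the ubiquitin ligase adaptor Siah1, measured 44.8% and 40.3% in B6/CAST and 45.8%, 46.5% and 48.3% in matDKO/CAST. Gm13212 measured 55.7% and 55.0% against 56.0%, 59.5% and 56.6%. In these the matDKO/CAST values were all above both B6/CAST values, by up to a few points, and no gene rose by the test. CAST/B6 ExE averaged 74.1% at Cacybp and 64.5% at Gm13212, above every library of both groups. Whether a low B6/CAST reading took part was not tested.

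Other kept genes overlapped between the groups. Prdm9, the histone methyltransferase that places meiotic recombination hotspots, measured 36.6% and 37.4% against 34.8%, 39.1% and 34.0%. Tubg1, a gamma-tubulin, measured 46.4% and 48.4% against 45.1%, 50.4% and 44.0%, and Skp1a, a subunit of SCF ubiquitin ligases, 42.2% and 45.7% against 41.9%, 42.5% and 43.4%. Of the 13 kept genes with E7.5 allelic values, 0 had 20 points or more on the maternal allele.

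Promoters were read from 1 window each, the shortest over a start of the gene, and were mostly low. Across 19249 promoters, all 3 matDKO/CAST libraries were below both B6/CAST libraries in 6096 (31.7%) and above both in 292 (1.52%). No promoter passed limma on the difference itself (0 lower and 0 higher, with 3140 lower and 23 higher at an unadjusted p under 0.05). In relative values all 3 matDKO/CAST libraries lay below both B6/CAST libraries in 983 promoters (5.11%), and above both in 562 of the 6222 with 50% or more in CAST/B6 (9.03%). By limma on relative values 199 were lower (1.03%; adjusted p under 0.05) and 485 were lower at an unadjusted p under 0.05 (2.52%). Another 6151 (32.0%) were higher, which takes in promoters near 0 that cannot fall, and 81 of the 6222 were (1.30%). These relative calls rest on the setting: 9 of 12 alternatives gave 0 promoters in either direction, among them leaving out matDKO/CAST replicate 1, replicate 2 or either B6/CAST library.

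Of the 10 promoters with the largest relative loss among those calls, 6 belong to imprinted genes, as did 7 of the 199 called lower and 95 of the 19249 promoters tested. Impact measured 59.1% and 37.7% against 0% in all matDKO/CAST libraries. Nnat, a small membrane protein gene inside Blcap, measured 57.2% and 50.8% against 16.3%, 8.41% and 1.74%. The neighbouring Blcap promoter measured 84.0% and 79.3% against 46.4%, 40.5% and 22.6%. At Zrsr1 the values were 34.3% and 52.3% against 0%, 0% and 5.56%. Peg3 and Plagl1 were the others, with the gDMR windows given above.

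The rest were not on the list of imprinted genes. The Cckar promoter, which is also one of the windows of its gene body and holds the stretch printed above, measured 72.0% and 69.7% against 31.5%, 27.2% and 20%. Nr1h2, which encodes the oxysterol receptor LXR beta, measured 64.7% and 69.5% against 24.0%, 22.6% and 18.2%. Hgfac, an activator of hepatocyte growth factor, measured 74.1% and 68.6% against 35.0%, 13.5% and 24.0%, and Serpina1c, an antitrypsin gene, 65.2% and 67.0% against 21.6%, 26.4% and 16.7%. In each the groups were at least 30 points apart.

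The 10 promoters with the most positive relative values among those calls lay in windows of 2536 to 35264 bp. Smr2, a salivary protein gene, measured 17.8% and 25.3% against 56.3%, 42.0% and 36.4%, in a window of 35264 bp. Tmem213 measured 42.1% and 41.5% against 48.4%, 53.8% and 64.7%. Oc90, an inner ear matrix protein gene, measured 29.2% and 50.2% against 60.4%, 56.3% and 53.3%. The matDKO/CAST values were above both B6/CAST values in all 3. In each of the 10 the B6/CAST mean lay below the CAST/B6 ExE mean, which was 55.9% at Smr2, 62.9% at Tmem213 and 62.0% at Oc90. How far a low B6/CAST reading took part was not tested.

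Among single windows none passed the test, and those with the smallest p are described by their values. Of the 10 on the side of loss, 6 lay at genes of the imprinted list, as did 0.486% of all windows, among them Kcnq1ot1, Trappc9/Peg13, Peg3 and the second Gnas window above. At Blcap and Nnat (chr2:157561423-157564140) the level was 72.2% and 63.9% in B6/CAST and 13.3%, 16.2% and 7.14% in matDKO/CAST. An intronic window of Arid1b, a chromatin remodelling subunit gene that the study's list includes (chr17:5247810-5250374), measured 85.4% and 79.8% against 33.3%, 34.4% and 38.5%. It was not allelic at E7.5, at 83.2% on the maternal and 80.5% on the paternal allele. A window between genes on chromosome 4, with Map3k7 as the nearest gene (chr4:31680025-31689815), measured 72.5% and 65.0% against 21.4%, 20.6% and 14.1%. At E7.5 this last window was at 73.1% on the maternal and 67.6% on the paternal allele.

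On the kept side, the Arid5b window (chr10:68157704-68161084), in an intron of a gene for a DNA-binding cofactor of a histone demethylase, was at 49.1% and 56.5% in B6/CAST and 76.4%, 70.5% and 77.8% in matDKO/CAST. A window in an intron of Nkain2 (chr10:31881395-31891498) went from 27.8% and 28.3% to 51.4%, 51.5% and 56.3%, and 83.3% of its bases lie in annotated repeats. A window near Adam11 (chr11:102783560-102787309) measured 31.2% and 22.5% against 47.1%, 63.0% and 58.0%. All 3 were higher in every matDKO/CAST library, as 0.589% of all windows were. In CAST/B6 ExE they averaged 70.8%, 70.9% and 52.0% in the same order, above both B6/CAST values of each. How far a low B6/CAST reading took part was not tested.

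Gene lists were counted beside all genes. Of 18 oocyte genes with a gene body value, 17 fell (94.4%, beside 77.7% of all gene bodies) and 7 (38.9%) lay below in relative values in all libraries, beside 10.8% of all gene bodies. Their median difference was -14.8 points, against -11.1 for all genes. Padi6, a maternal-effect gene of the egg cytoplasm, measured 64.3% and 62.9% against 48.4%, 34.4% and 34.3%, and Nlrp4e, of the NLRP family of the oocyte, 52.1% and 50.9% against 22.6%, 32.4% and 27.4%. Both groups were apart in each gene, with replicate 1 the highest matDKO/CAST library in Padi6 and the lowest in Nlrp4e. Spin1, a histone reader of the egg, was the 1 member that did not pass (61.4% and 61.0% against 51.2%, 52.5% and 61.0%).

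Of 23 germline genes, which are silenced by promoter methylation in somatic cells, 20 fell (87.0%, beside 77.7% of all gene bodies), with a median of -14.1 points. Asz1, of the piRNA machinery, measured 55.8% and 47.3% against 34.8%, 28.3% and 31.6%, and its partner Tdrd1 67.9% and 71.2% against 53.7%, 50.8% and 50.6%. Mael, Smc1b and Mei4 did not pass. Of 30 germline promoters none was called lower in relative values (1.03% of all promoters were), and 1 was called higher (32.0% of all were). Of these promoters, 18 (60%, beside 31.7%) lay below in all libraries and 4 (13.3%, beside 5.11%) did so in relative values too, with a median difference of -14.2 points against -3.77 for all promoters. The median level in B6/CAST was 40.04% for the germline promoters and 21.3% for all, and matched for baseline the medians were -0.60 and 0.96.

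Of 77 imprinted genes with a gene body value, 67 fell (87.0%, beside 77.7% of all gene bodies), with a median of -13.7 points. In relative values 16 (20.8%, beside 10.8%) lay below in all libraries. The list comes from the study, which picked some of its members in these embryos, so it is not independent evidence. The Impact gene body measured 69.5% and 67.9% against 47.6%, 39.2% and 50.6%. Igf2, the growth factor gene next to H19, was among the 10 that did not pass, at 23.9% and 28.1% against 21.7%, 29.8% and 26.7%. Of 95 imprinted promoters, 7 were called lower in relative values, beside 1.03% of all promoters, and 21 higher (22.1%, beside 32.0%). All relative promoter calls came to 0 in 9 of 12 alternatives.

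The Hox genes, which pattern the body axis, and the clustered protocadherins, cell adhesion genes, had low levels in B6/CAST. Of 21 Hox genes, 8 fell (38.1%, beside 77.7% of all gene bodies), at a median of -6.92 points from a B6/CAST median of 17.9%. Hoxa10 measured 19.11% and 19.07% in B6/CAST and 6.09%, 5.84% and 8.24% in matDKO/CAST, while Hoxc9 measured 9.68% and 8.29% against 7.19%, 11.2% and 9.89%. Of 33 clustered protocadherins, whose gene bodies overlap and share windows, 11 fell (33.3%), at a median of -6.02 points from 25.4%. All 3 matDKO/CAST libraries lay below both B6/CAST libraries in 32 of the 33 protocadherins and in 15 of the 21 Hox genes. Among all gene bodies this share was 87.6%.

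Of 23 trophoblast factors, 16 fell (69.6%, near the 77.7% of all gene bodies) and 1 lay below in relative values in all libraries (4.35%, beside 10.8%), with a median of -9.85 points. Prdm1, a repressor needed in placental and germ cell lineages, measured 51.4% and 54.1% against 35.2%, 37.3% and 33.6%. Cdx2, a trophectoderm factor, was at 3.41% and 3.01% against 4.96%, 3.62% and 5.65%, near the floor in all 5 libraries. Of 18 epiblast pluripotency factors, 14 fell (77.8%, the share of all gene bodies; median -10.3 points), with Dppa2, a chromatin factor of pluripotent cells, at 70.2% and 63.8% against 46.1%, 44.3% and 37.4%.

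Of 24 genes of the methylation machinery and its chromatin partners, 17 fell (70.8%, near the 77.7% of all gene bodies; median -9.18 points), among them Setdb1, a histone H3K9 methyltransferase, at 84.6% and 82.0% against 63.7%, 72.0% and 61.3%. Suz12, a subunit of Polycomb repressive complex 2, did not pass, at 54.5% and 57.7% against 52.7%, 52.1% and 49.9%. Of 5 readers of imprinting control regions with a value, 2 fell (40%, beside 77.7% of all gene bodies). All 5 lay below both B6/CAST libraries in every matDKO/CAST library (100%, beside 87.6%). Smchd1, an imprinting and X inactivation repressor, measured 75.7% and 74.4% against 69.7%, 68.4% and 73.1% and did not pass.

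Large gene families were counted in the same way. Of 196 genes with Zfp names, most of which encode zinc finger proteins with a KRAB repression domain, 135 fell (68.9%, beside 77.7% of all gene bodies), with a median of -10.3 points and 13 (6.63%, beside 10.8%) below in relative values in all libraries. Zfp992 measured 71.7% and 70.03% against 44.0%, 54.0% and 33.4%, and Zfp703 was at 8.48% and 7.93% against 7.96%, 9.31% and 9.94%. Of 18 vomeronasal receptors 12 fell (66.7%), and of 4 olfactory receptors with a gene body value 3 fell. At promoters, 14 of 968 olfactory and 2 of 226 vomeronasal receptors were called lower in relative values, beside 1.03% of all promoters, and 43 and 3 were called higher, beside 32.0%. Their median differences were -9.59 and -9.34 points against -3.77 for all promoters, whose median level is lower. Olfr323, the most negative of the olfactory receptors, measured 58.3% and 56.9% against 22.5%, 19.6% and 19.4%.

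The gene clusters of the placenta were read at promoters, since few of their genes hold 3 windows. None of 19 prolactin-family, 12 pregnancy-specific glycoprotein and 8 cathepsin promoters was called on either side in relative values, where 1.03% of all promoters were called lower and 32.0% higher. In relative values 3 of the 12 glycoprotein promoters (25%, beside 5.11% of all), 1 of the 19 prolactin-family and 0 of the 8 cathepsin promoters lay below in all libraries. The median difference was -12.8 points for the prolactin family, -14.3 for the glycoproteins and -10.9 for the cathepsins, against -3.77 for all promoters, whose median level is lower. Psg21 measured 45.3% and 43.4% against 25.2%, 21.6% and 14.3%. Psg16, the 1 glycoprotein gene with a gene body value, fell, at 48.8% and 53.2% against 36.4%, 21.5% and 26.8%.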

How the data were processed

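The authors trimmed reads with Trim Galore 0.4.4 and aligned them with Bismark 0.20.0 (versions from the submitters' processing notes) to GRCm38 with strain variants masked. Reads of matDKO/CAST embryos went through an added step for 129 alleles, and whether its reads enter the deposited values is not given in the sources used here. The deposited values are percent methylation per window of CpG sites, both alleles together at E6.5, without read counts. Allelic E7.5 values are percent methylation deposited by the authors for each parental allele, used as the mean of 4 ExE libraries. Here, libraries entered as deposited. Gene bodies averaged windows with their midpoint in a protein-coding gene, from 3 windows up; promoters took the shortest window over a start; E7.5 windows needed 50% overlap. Groups were compared with limma 3.58.1 in R 4.3.3 at an adjusted p of 0.05 (Benjamini-Hochberg over all features), on percentages and after subtracting library means, and library means with exact permutation tests. limma was tested on simulated data. Named were the 15 gene bodies, 10 promoters and 10 windows (1 per 50 kb) most changed each way in relative values, filled by the smallest p where too few passed, with all gDMRs, LTRs and the extreme members of each list. The gDMRs, LTRs and imprinted genes were taken from the study's lists. Members and lists were chosen with earlier results of these data known. The Snrpn gDMR window lacked a value in a library and was not analysed. Alternatives were another centring, a logit scale, trend and robust settings, a replicate block, pooled wild types and leaving out each library. Sequences and gene positions came from GRCm38 and its GENCODE annotation.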

Additional observations from a re-analysis of the deposited data

Results flagged for a closer look

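For 213 named features the difference was set beside that of the epiblast (3 B6/CAST and 2 matDKO/CAST libraries). In 6 of them all matDKO/CAST libraries lay on one side of the B6/CAST libraries in the ExE and on the other side in the epiblast. The mean window also fell in the epiblast, from 64.3%, 70.2% and 73.6% in B6/CAST to 53.3% and 51.5% in matDKO/CAST. A fall in the epiblast is thus the direction of the mean window there. The difference between the tissues was not tested. Most of the 6 were named because they were kept in the ExE, which fixes the direction there.

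The Gm13212 gene body differed by 2.04 points in the ExE and by -6.02 in the epiblast. The Slc17a2 promoter, at a phosphate transporter gene, differed by 10.5 points in the ExE and by -21.0 in the epiblast (80.8%, 82.4% and 86.9% in B6/CAST against 63.6% and 61.1%). At the Hoxb2 promoter the ExE difference was -20.4 points (41.9% and 43.2% against 34.6%, 28.1% and 3.57%) and the epiblast difference was 13.5 points (10.7%, 18.5% and 6.67% against 30% and 20.8%). The window near Adam11 differed by 29.2 points in the ExE and by -19.0 in the epiblast, that with Impad1 as the nearest gene by 21.4 and -40.4, and that near Ptpn13 by 22.2 and -25.7.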

How the results depend on the processing

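The mean drop kept its direction in all alternatives, and reached -18.4 points with CAST/B6 pooled into the wild types (exact permutation test, p = 0.0286). The CAST/B6 libraries lay above both B6/CAST libraries in mean level (64.9% and 62.2%), and the pooled wild types had an SD of 6.96. The larger drop thus includes a difference between wild-type crosses. With that pooling 66824 windows were lower and 4 higher, and 1 was lower in relative values, against 0 for each here. limma's trend and robust settings called 170 windows lower and 12525 higher in relative values (62 higher at 50% or more in CAST/B6), 2 gene bodies lower, 57 higher and 1 higher at 50% or more, and 87 promoters lower and 42 higher at 50% or more. The fall of gene bodies held with 3556 to 9910 genes when libraries were left out, with 3556 without B6/CAST replicate 1 and 4548 without B6/CAST replicate 2, where the lone library was assumed to vary like the others; between 0 and 5 rose, and 1 rose on a logit scale. Relative promoter calls came to 0 on a logit scale, as a ratio to the library mean, matched for baseline, and matched for baseline without matDKO/CAST replicate 1 (the last chosen after seeing the data); leaving out libraries gave 0 to 244 lower, 0 to 5581 higher and 0 to 115 higher at 50% or more. Centring on the median window, also chosen after seeing the data, gave 154 higher at 50% or more. The LTR difference was 5.05 relative to the library mean, against a fall in percentages. Strata by B6/CAST itself put the deepest loss at -16.6 points. When libraries were left out, H13/Mcts2 ranged from -6.68 (without matDKO/CAST replicate 2; -2.38 without B6/CAST replicate 2) to 8.12, Gnas (Nespas) from -8.53 (without B6/CAST replicate 2; -1.25 without matDKO/CAST replicate 2) to 24.8, and H19 from -0.0218 (without matDKO/CAST replicate 3) to 13.7. H19 was at -12.3 with pooled wild types. The cause of these changes was not tested. Of all 164 gDMR values under the alternatives, 148 kept their direction and call, 9 gained a call and 7 turned. A minimum coverage could not be tried because the files used give none.

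Libraries of both genotypes share replicate numbers 1 and 2, but nothing pairs them: the correlation of their deviations from the group means lay between -0.023 and 0.023. A fit with the replicate number as a block, which drops matDKO/CAST replicate 3, gave a mean drop of -11.5 points. The block gave 19 gene bodies lower and 33 higher in relative values, 16 of them at 50% or more, 0 promoters on either side, and -0.0218 for H19.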

Other observations

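Averaged over 1 Mb regions with at least 50 windows (2192 regions, a summary chosen after seeing the data), every region was lower on average in matDKO/CAST, from -20.4 to -4.41 points with a median of -12.0. All 3 matDKO/CAST libraries lay below both B6/CAST libraries in 2119 of them (96.7%). The deepest loss was in chr17:7000001-8000000, which holds Rps6ka2, a growth signalling kinase gene, and Tcp10a, of the mouse t-complex, with 53.4% and 53.5% in B6/CAST against 35.0%, 34.2% and 30.03%. The regions of Spock1, a proteoglycan gene, and of Cdh13, a cadherin without a cytoplasmic domain, followed. The shallowest losses, as in the region of Ncam2, a neural adhesion gene (28.6% and 28.7% against 32.3%, 21.1% and 19.3%), rest on matDKO/CAST replicate 1.

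On the X chromosome, left out of the comparisons, the level was 40.7% and 42.3% in B6/CAST and 34.4%, 32.2% and 29.0% in matDKO/CAST, a difference of -9.63 points over 9491 windows.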
